A study of Drosophila melanogaster with 2 samples.

Results

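Peaks of the tagged CG6276 protein were found deep inside introns, 2001 to 10000 bp from the nearest transcript start of any gene. In the authors' thresholded peak list 1781 of 7326 summits met this rule, or 24.3% (95% Wilson interval 23.3% to 25.3%). A summit, the highest position of a peak, was kept where it lay inside a gene of Ensembl release 115 (BDGP6.54, transposable elements left out), in no annotated exon, and at that distance from a start. The rule used position alone. Joining overlapping peaks left 1654 members.

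The data were ChIP-seq peak lists from whole Drosophila melanogaster prepupae, with males and females pooled and an age label of 72 days that does not match the prepupal stage, so the age is not known here. Every animal carried CG6276 with a green fluorescent protein fused at its C-terminus, stably expressed in 1 transgenic line, and an anti-GFP antibody was used to precipitate chromatin sheared to between 200 and 800 bp. There was 1 group with 2 biological replicates, numbered 2 and 4, and no untreated or untagged library was analysed here, so no comparison between conditions was possible. Not given in the sources used here are the promoter that drives the fusion, the sequencing depth, the aligner, the peak caller and the threshold of the irreproducible discovery rate (IDR) procedure. Because the tissue was the whole animal, a peak carried by few cells and a weak peak carried by many cannot be told apart. Peaks and genes are the units counted below and are not replicates, so intervals and p-values describe this pair of libraries and cover counting error only.

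In the prepupa a pulse of the steroid hormone ecdysone has ended larval life, larval tissues begin to be removed and adult structures are shaped from imaginal discs. Genes that steer these events in flies are often long, and their introns commonly hold enhancers, stretches of DNA where transcription factors bind and act on a start some distance away, as well as inner promoters that make shorter transcripts. An intronic peak alone does not say which gene, if any, it acts on.

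The letters under the strongest members are shown first, to give the sequence behind the highest signal values. These are the 5 strongest members on chromosomes X, 2L, 3L, 3R and 4, each as the summit with 100 bp to each side, from the plus strand of the dm6 reference. Capitals mark CAGTG and its reverse complement CACTG, a core whose position around the summits is described below.
pdgy member, chrX:14947437-14947637: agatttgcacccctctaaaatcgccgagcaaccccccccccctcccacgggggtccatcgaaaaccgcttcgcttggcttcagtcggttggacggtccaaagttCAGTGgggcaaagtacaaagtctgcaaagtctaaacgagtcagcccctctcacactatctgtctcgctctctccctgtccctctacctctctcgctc
spen member, chr2L:166534-166734: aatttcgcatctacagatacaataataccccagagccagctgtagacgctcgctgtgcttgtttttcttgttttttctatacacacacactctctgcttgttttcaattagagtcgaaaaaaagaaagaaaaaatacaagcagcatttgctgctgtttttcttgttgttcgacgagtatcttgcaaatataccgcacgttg
CG32486 member, chr3L:3060717-3060917: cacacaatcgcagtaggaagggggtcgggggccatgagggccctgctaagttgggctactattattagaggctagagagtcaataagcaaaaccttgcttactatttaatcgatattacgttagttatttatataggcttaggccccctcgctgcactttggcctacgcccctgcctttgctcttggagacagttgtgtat
JIL-1 member, chr3L:11084674-11084874: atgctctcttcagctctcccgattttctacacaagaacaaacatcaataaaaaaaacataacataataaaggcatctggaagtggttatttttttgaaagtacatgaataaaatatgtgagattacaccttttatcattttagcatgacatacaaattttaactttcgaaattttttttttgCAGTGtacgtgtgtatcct
Raf member, chrX:2300601-2300801: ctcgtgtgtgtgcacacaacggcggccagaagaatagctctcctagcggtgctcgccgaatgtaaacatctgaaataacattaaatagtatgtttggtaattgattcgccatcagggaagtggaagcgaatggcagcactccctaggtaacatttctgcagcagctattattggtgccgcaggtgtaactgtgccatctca
Of these windows, those of pdgy and JIL-1 held the core once, 6 bp and 84 bp from the summit, and the other 3 held none. The JIL-1 window was 29.4% G + C and the pdgy window 56.7%, so the members shown did not share 1 base composition. A further 3 members are shown over 299 bp, chosen after the data were seen. They are the strongest on the same chromosomes with a match to the core at least 61 bp from the summit on each side. Members with matches only closer in were passed over. The distances given for these 3 were thus bounded by the choice and do not bear on where the core lies in other members.
Pits member, chrX:12579546-12579844: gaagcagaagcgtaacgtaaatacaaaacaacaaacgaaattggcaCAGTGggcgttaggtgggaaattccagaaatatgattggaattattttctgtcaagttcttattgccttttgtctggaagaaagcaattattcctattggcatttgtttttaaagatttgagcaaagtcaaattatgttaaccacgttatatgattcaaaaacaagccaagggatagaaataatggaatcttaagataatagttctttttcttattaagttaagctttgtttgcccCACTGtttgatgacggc
CG34417 member, chrX:6549758-6550056: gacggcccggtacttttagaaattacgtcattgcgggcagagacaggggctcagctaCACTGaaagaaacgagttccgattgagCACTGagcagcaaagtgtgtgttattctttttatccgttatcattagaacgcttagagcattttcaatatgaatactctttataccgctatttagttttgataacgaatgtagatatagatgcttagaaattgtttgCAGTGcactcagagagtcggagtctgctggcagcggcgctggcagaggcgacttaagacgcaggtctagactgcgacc
Gug member, chr3L:8458171-8458469: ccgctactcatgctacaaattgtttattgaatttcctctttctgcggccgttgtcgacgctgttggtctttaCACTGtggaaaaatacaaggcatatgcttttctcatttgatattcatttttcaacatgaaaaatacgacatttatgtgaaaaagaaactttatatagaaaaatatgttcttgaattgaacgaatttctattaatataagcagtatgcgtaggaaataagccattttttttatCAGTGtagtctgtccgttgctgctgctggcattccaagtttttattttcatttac
The Pits member had the core 101 bp to the left and 135 bp to the right of its summit, the CG34417 member 63 bp and 74 bp away at the nearest, and the Gug member 75 bp and 97 bp away. The sequence between was AT-rich, with 30.9%, 29.6% and 21.0% G + C in the central stretch of the Pits, CG34417 and Gug windows. Pits encodes a protein that interacts with the repressor Ttk69 and Gug encodes the Atrophin corepressor.

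Members were denser than summits in the genome as a whole. The sequence that meets the position rule spans 24.19 Mb, or 18.1% of these chromosomes, and it held 73.6 members per Mb against 54.7 summits per Mb over all sequence. Among the strongest 7326 peaks of each replicate taken alone, 1704 met the rule in replicate 2 (70.5 per Mb) and 1778 in replicate 4 (73.5 per Mb). Promoters, defined as sequence within 500 bp of a start, held 131 summits per Mb and introns 501 to 2000 bp away 109 per Mb, while introns over 10000 bp away held 35.0, intergenic sequence 30.7 and exons 7.83. The classes kept this order in each replicate alone, although in replicate 4 introns over 10000 bp away (35.3 per Mb) and intergenic sequence (32.6 per Mb) lay close together. Among the weaker entries of the pooled list that overlapped no thresholded peak, 28.8% of 20862 summits met the position rule.

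The density fell with distance inside the range. It was 83.7 members per Mb at 2001 to 3000 bp, 77.1 at 3001 to 4000 bp and 75.2 at 4001 to 5000 bp. It then went from 70.9 at 5001 to 6000 bp to 67.0 at 6001 to 8000 bp and 63.6 at 8001 to 10000 bp. Replicate 2 went from 82.8 to 58.8 per Mb between the nearest and the farthest of these ranges, and replicate 4 from 85.6 to 63.1. The last summit outside at the near edge lay in red, 1997 bp from a start with a signal value of 397.8, and the first inside lay in CG10738 at 2001 bp with 209.2. At the far edge the last inside lay in CG33144 at 9981 bp with 366.7, and the first outside in CG32982 at 10004 bp with 186.9.

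**Figure D1:**
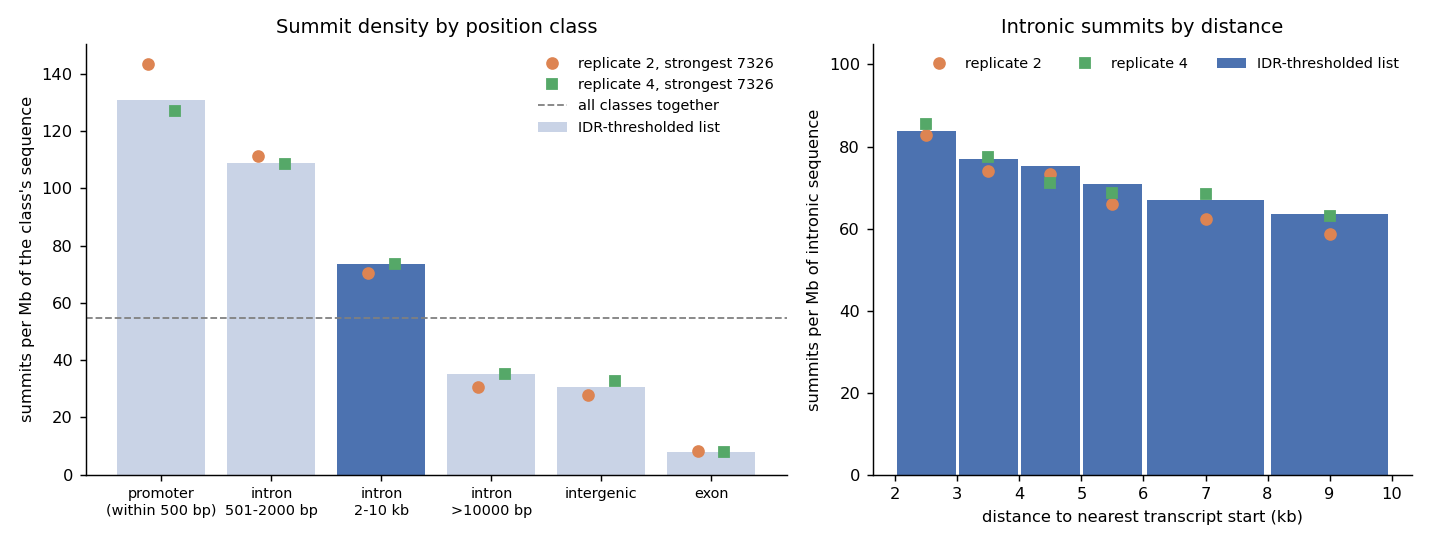
Left, summits per Mb of each position class in the thresholded list (bars; members in dark blue) and in the strongest 7326 peaks of each replicate (points), with the dashed line at 54.7 per Mb for all classes together. Right, members per Mb against distance to the nearest transcript start; both replicates fall from over 80 per Mb at the near edge to about 60 per Mb at the far edge.

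The X chromosome held 87.8 members per Mb of such sequence, against 71.2 on the 4 large autosome arms together. The ratio was 1.23, with 1.26 in replicate 2 and 1.19 in replicate 4. The arms ranged from 66.5 per Mb on 2L to 77.7 on 3L. Chromosome 4, which is small and rich in heterochromatin, had 2 members in 0.338 Mb, or 5.92 per Mb, with 2 in replicate 2 and 3 in replicate 4. The sequence with annotated transposable elements was nearly empty as well: 2 members (0.112%, 95% interval 0.0308% to 0.409%) had their summit in one, while 6.93% of the sequence that meets the rule is annotated so. In repeats, an absence of peaks and an absence of uniquely placed reads cannot be told apart from peak lists.

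The peak caller's signal value is a score set by the authors. Whether its scale is shared between lists is not known, so replicate values given side by side do not measure a difference in binding. Over the members the signal value in the thresholded list had a median of 241.3 (quartiles 181.0 and 371.7, maximum 4951). The median was 264.3 for intronic summits 501 to 2000 bp from a start and 226.9 for those over 10000 bp away. Members were less often among the strongest 20% of thresholded peaks than the nearer class, at 15.2% against 22.3% (difference of -7.05 percentage points, 95% interval -9.93 to -4.23, two-sided Fisher exact test, Benjamini-Hochberg adjusted p = 3.20e-05 over 34 tests). The difference was -5.81 points with replicate 2 alone and -6.52 points with replicate 4 alone. Against the farther class, at 11.8%, the difference of 3.44 points did not pass the threshold of 0.05 (95% interval 0.205 to 6.35, two-sided Fisher exact test, adjusted p = 0.317).

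Most members were found in the full lists of both replicates, which hold weak entries too. The authors' procedure had selected the thresholded peaks using both replicates, so presence in both lists was favoured beforehand and is no independent check. The deposited −log10 q-value went down to 0.486 in the list of replicate 2 and 0.481 in that of replicate 4. A member counted as found where a replicate's peak shared at least 50% of both lengths, and 1295 of 1781 were found in both lists of 30000 peaks (72.7%, 95% interval 70.6% to 74.7%). A further 343 were found in 1 list and 143 (8.03%) in neither, although 97.3% overlapped a peak of each list by at least 1 bp. The share was 76.4% in introns 501 to 2000 bp from a start and 74.1% over 10000 bp away, and neither difference passed the threshold (-3.73 points, interval -6.84 to -0.571, and -1.42 points, interval -5.37 to 2.75; two-sided Fisher exact tests, adjusted p = 0.255 and 1.00). With only the strongest 7326 peaks of each list searched, 47.9% were found in both. Neighbouring members can match the same replicate peak, as 24 of 1475 did in replicate 2 and 28 of 1458 in replicate 4. Over the 1295 members found in both, Spearman's rho between the replicates was 0.612 and Pearson's r, on log2 values, was 0.690, a correlation across peaks that the authors' procedure had selected from these same lists.

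**Figure D2:**
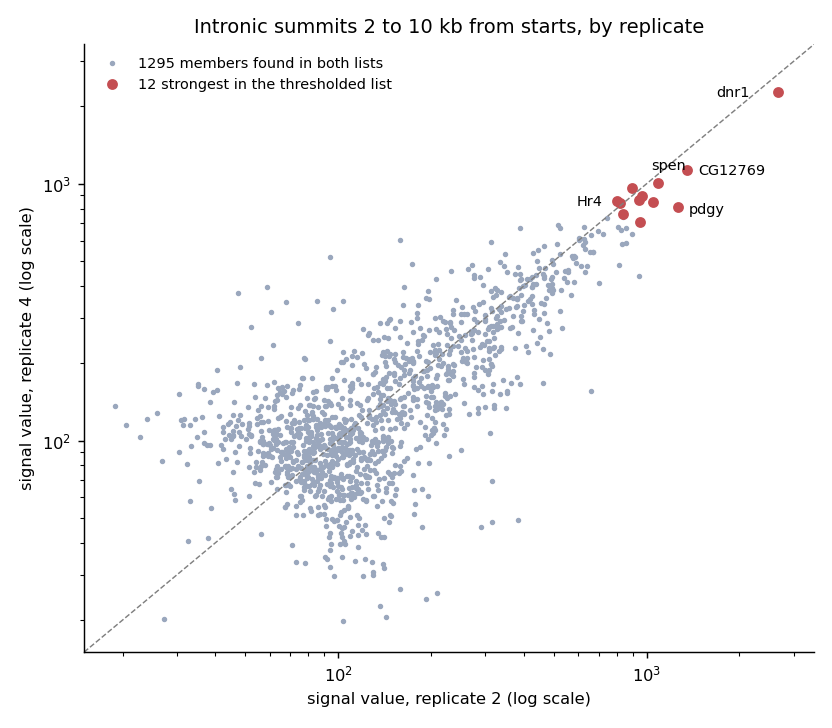
Signal value of each of the 1295 members found in both replicate lists, in replicate 2 (x axis) and replicate 4 (y axis), both on log scales, with the line of equal values dashed. The 12 strongest members of the thresholded list are in red, with dnr1 highest at 2667 and 2276. They were chosen by a signal value derived from both replicates, so their place at the upper end follows from the choice.

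The strongest member was the strongest peak of the whole list. It lay in an intron of dnr1, a gene for a RING-finger protein that restrains the Imd immune pathway and the caspase Dronc (chromosome 2R, 22569679 to 22570548), 7702 bp from the nearest start, which belongs to CG11362. Its signal value was 2667 in replicate 2 and 2276 in replicate 4, rank 1 in both. The next was a member in CG12769 (chromosome 2R, 8060806 to 8061255), with 1352 in replicate 2 and 1130 in replicate 4. After dnr1 the values in both replicates were thus about 50% of its own or lower, and the other 11 members ranked between 26 and 168.

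The host genes of the next members have unlike roles. The member in pdgy, which encodes an acyl-CoA synthetase (chromosome X, 14947253 to 14947783, 3212 bp from the gene's own start), had 1266 in replicate 2 and 809.5 in replicate 4. The member in spen, a gene for a large RNA-binding corepressor (chromosome 2L, 166300 to 167190), had 1090 and 1006 in replicates 2 and 4. That in CG32486 (chromosome 3L, 3060608 to 3060995) had 1049 and 850.4. The pdgy member was thus the one of these 3 in which the replicates were farthest apart, with ranks of 36 and 117.

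Psc, which encodes a subunit of the Polycomb complex PRC1, held a member with 893.4 in replicate 2 and 964.1 in replicate 4 (chromosome 2R, 12975378 to 12975785). In JIL-1, the gene for a kinase of histone H3, the values were 966.6 and 894.0 (chromosome 3L, 11084575 to 11084968). In Raf, the kinase gene downstream of Ras, they were 944.9 and 864.6 (chromosome X, 2300522 to 2300886). These 3 members lay 5081 to 7082 bp downstream of a start of their own gene, outside its first introns, and ranked 107 or better in both replicates.

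The remaining 4 had values under 1000 in both replicates. The member in tna, a trithorax group gene, had 954.5 in replicate 2 and 707.3 in replicate 4 (chromosome 3L, 10852639 to 10853351). In the non-coding gene lncRNA:CR45668 the values were 803.5 and 852.8 (chromosome X, 5895945 to 5896346), and in Hr4, which encodes a nuclear receptor of the ecdysone cascade, 818.8 and 843.4 (chromosome X, 1951718 to 1952094). In Tlk, the gene for the Tousled-like kinase, they were 840.4 and 763.7 (chromosome X, 3742016 to 3742421). No member as strong as these was missing from either replicate list.

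Most members lay in a first intron of their gene. The host gene was the gene over the summit, a protein-coding one where there was any, and the shortest where several overlapped. The first intron of any annotated transcript of the host gene was counted, so a gene with inner starts can have several. Such introns held 63.8% of members (1136 of 1781, 95% interval 61.5% to 66.0%), whereas they make up 46.4% of the sequence that meets the rule. The introns that held members, first or not, were long, with a median of 11539 bp (quartiles 6746 and 20941). The nearest start belonged to the host gene for 66.4% of members, so that for the others another gene's start was nearer. Of all members, 52.5% lay downstream of the nearest start and inside the gene that start belongs to, and 13.9% lay upstream of an inner start of their own host. Host genes were protein-coding for 98.0% of members, and the other 35 members lay in non-coding genes. The median distance to the nearest start was 4428 bp.

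Members were gathered in few genes. Of 4206 genes with any sequence that meets the rule, 746 held a member, which is 17.7% (95% interval 16.6% to 18.9%; 726 genes with replicate 2 alone and 736 with replicate 4 alone). This share is the background for the gene counts below. It depends on how much such sequence a gene has. Among genes with up to 1634 bp of it 1.09% held a member, among those with 1636 to 7744 bp 21.9%, and among those with 7745 bp or more 46.9%. A set of 248 genes held at least 3 members each and together 1139 of the 1781 (64.0%). The nearest other member was a median of 2285 bp away, and 47.5% of members had another within 2000 bp. For 15.3% it lay within 500 bp, and these counts include summits of overlapping peaks, whose joining left 1654 members. The distances were not set against the layout of the sequence that meets the rule.

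Peaks at the starts of the same genes were counted as a readout that the rule did not use. A thresholded summit lay within 500 bp of a start in 407 of 746 host genes (54.6%, 95% interval 51.0% to 58.1%), against 638 of 3460 eligible genes without a member (18.4%, 95% interval 17.2% to 19.8%). The shares were 57.4% against 21.2% in replicate 2 alone and 51.9% against 18.6% in replicate 4 alone. Within ranges of eligible sequence, the share was 53.0% with a member (95% interval 46.6% to 59.4%) against 24.4% without (21.6% to 27.4%) in genes with 1636 to 7744 bp, and 56.4% (52.0% to 60.7%) against 20.2% (17.1% to 23.7%) in genes with more. In genes with up to 1634 bp it was 7 of 23 (30.4%, 15.6% to 50.9%) against 15.6%, and the interval reached the share without a member. The amounts still differed within a range, with medians of 4568 against 3653 bp in the middle one, 15611 against 12046 bp in the highest and 1032 against 243.5 bp in the lowest. These shares are a description, since neighbouring genes can share a start region and are not independent.

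The 6 genes with the most members were Mnt, mam, shn, mew, Eip75B and tara. Mnt encodes a Max partner that opposes Myc, and it held 13 members in 18.53 kb of eligible sequence (chromosome X, 3671801 to 3701672), with 12 in each replicate alone. Its strongest member, from 3682128 to 3682516, had a signal value of 956.1, with 507.2 in replicate 2 and 451.1 in replicate 4. The next, from 3677824 to 3678323, had 882.8, with 498.2 and 385.9. A run of 9 Mnt members lay between 2.07 and 13.5 kb from the gene's most upstream start and 4 more between 20.5 and 23.7 kb, and 11 of the 13 were found in both replicate lists.

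In mam, the gene for the Notch coactivator Mastermind (chromosome 2R, 13991203 to 14060356), 12 members were counted, with 11 in replicate 2 and 9 in replicate 4. The strongest pair lay side by side 33.3 and 34.0 kb from the most upstream start of mam, with signal values of 620.8 and 722.3 in replicate 2 and 579.6 and 639.1 in replicate 4. The other mam members were weaker, at 579.8 or below in the thresholded list. In shn, which encodes a zinc-finger protein that acts with the Smads of BMP signalling (chromosome 2R, 11159086 to 11217394), the count was 12 in the thresholded list, 16 in replicate 2 and 12 in replicate 4. The shn members spanned signal values of 186.0 to 923.2 and all lay in the stretch from 17.2 to 48.1 kb.

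The integrin gene mew (chromosome X, 13214409 to 13258490) also had 12 members, with 8 in replicate 2 and 10 in replicate 4. Most of the mew members were weak, with a median signal value of 188.2 and a maximum of 789.4. Eip75B, a nuclear receptor gene induced by ecdysone, had 11 members (chromosome 3L, 17950953 to 18064696) and 12 in each replicate alone. Its strongest, 55.5 kb from the most upstream start, had 808.0 in replicate 2 and 678.6 in replicate 4, and the next, 86.0 kb away, had 701.5 and 410.5. All 11 members of Eip75B were found in both replicate lists. In tara, a trithorax group gene (chromosome 3R, 16225651 to 16260329), 5 of 11 members were found in both. The tara list holds 2 summits in each of 2 intervals, and joining overlapping peaks left 9.

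**Figure D3:**
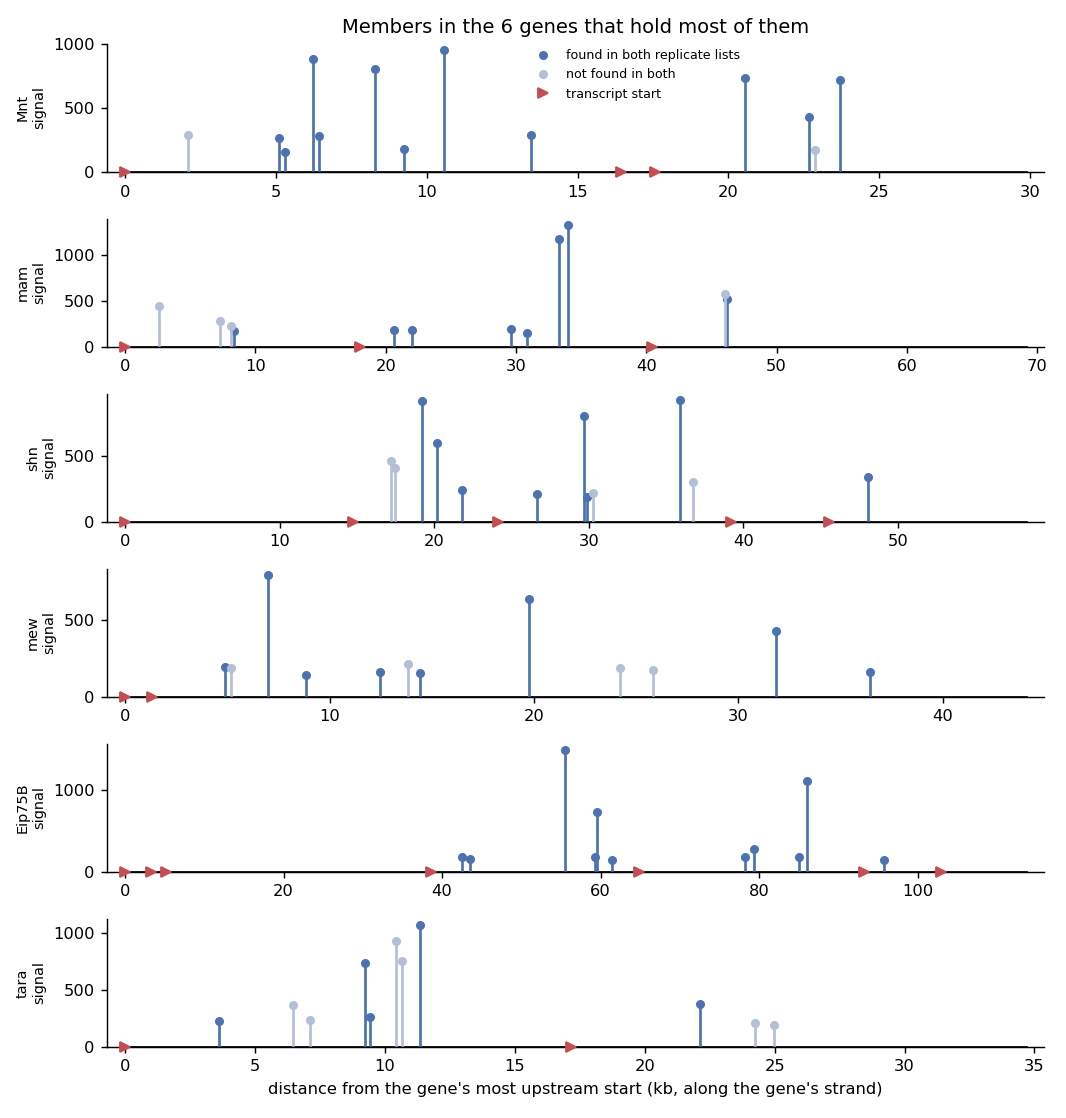
Members of the 6 genes that hold most of them, each drawn at its distance from the gene's most upstream start along the gene's strand (x axis, kb), with its signal value in the thresholded list as the height (y axis). Dark blue members were found in both replicate lists and light ones were not, and red triangles mark transcript starts; Eip75B is dark throughout, while 6 of the 11 tara members are light.

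Among the ecdysone response genes 13 of the 17 with eligible sequence held a member, against the background of 17.7% of all eligible genes, and their 57 members gave 155.5 per Mb against 73.6 per Mb for all genes. The count was 12 in replicate 2 alone and 13 in replicate 4 alone, and 10 of the genes had at least 3 members. They have much of the sequence in question, a median of 21272 bp per gene against 1635 bp for all eligible genes. Among all eligible genes with 7745 bp or more, 46.9% held a member. Ligand-binding and orphan nuclear receptors of the cascade were among them. Besides Eip75B, Hr4 had 7 members, with 818.8 in replicate 2 and 843.4 in replicate 4 at its strongest. The gene of the competence factor Ftz-F1, which is needed in the mid-prepupal period, ftz-f1, also had 7. Its strongest member had 459.8 in replicate 2 and 167.7 in replicate 4 (chromosome 3L, 18771192 to 18771650). With ranks of 603 and 2533, the replicates stood well apart here. The gene of the receptor itself, EcR, had 4 members, 2 in replicate 2 and 5 in replicate 4. Eip63F-1, Kr-h1, Blimp-1 and Usp7 had eligible sequence and no member. The symbols Hr46, Dhr3, Eip71CD and Eip55E of this list did not match the annotation, so their genes were counted only if listed under another name. The gene lists and the members were chosen with earlier results of these data known, so each count is a description and the lists were not tested.

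The BTB zinc-finger regulators, which time and pattern development, stood nearer to the background per length, at 95.7 members per Mb in 7 of 12 genes. The sex determination gene fru had 6 members, ab 5 and psq 4, although ab had 4 in replicate 2 alone and 2 in replicate 4 alone. The strongest of fru had 174.3 in replicate 2 and 265.5 in replicate 4, and that of psq 493.2 and 406.8. The gene br, whose Broad proteins are early ecdysone-induced factors, had 1 member in 27.26 kb of eligible sequence, and chinmo and lola had none in 20.09 and 9.402 kb.

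Receptors, inhibitors and nuclear factors of the BMP and activin pathway held 308.2 members per Mb, from 30 members in 6 of 13 genes. The densities were 359.6 per Mb in replicate 2 and 308.2 in replicate 4. Besides shn with 12, the type I receptor gene tkv and the antagonist gene sog had 5 members each, the inhibitory Smad gene Dad had 4, the ligand gene dpp 3 and the Smad gene Mad 1. The strongest tkv member had 203.5 in replicate 2 and 234.6 in replicate 4. Of the 7 genes without a member, 6 had under 3 kb of eligible sequence and babo had 4.350 kb, and babo held 1 member in each replicate alone. Without shn, which gave 12 of the 30, the density was 235 per Mb, below those of the Hippo, cell death and JNK lists with all their genes (274.1, 261.2 and 256.9). With the gene of most members left out of those lists too, they had 183, 215 and 201.1 per Mb.

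Hippo growth control genes had 274.1 members per Mb (274.1 in replicate 2 and 215.4 in replicate 4), all in 4 of 10 genes. These were kibra with 7, the kinase gene wts with 3, ex with 3 and ds with 1, which all act upstream of or at the core kinase that restrains growth. The strongest kibra member had 744.8 in replicate 2 and 732.3 in replicate 4 (chromosome 3R, 14715156 to 14715562). The strongest ex member had 479.3 and 404.1. The co-activator gene yki had only 0.007 kb of eligible sequence, so it could hardly hold one.

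The receptor genes of both receptor tyrosine kinase lists held members. In the EGF receptor and Ras list 6 of 13 genes held a member (178.4 per Mb), with 6 in S, which acts in the trafficking of EGF ligands, 5 in the receptor gene Egfr and 5 in aop, which encodes the ETS repressor Yan. The symbol phl of this list did not match the annotation, and Raf, whose strong member is named above, is not among the 13 genes. The count and density of the list thus leave Raf out. With 1 replicate alone S had 3 (replicate 2) and 5 (replicate 4), and aop had 5 and 3. The strongest Egfr member had 236.5 in replicate 2 and 196.7 in replicate 4, whereas that of aop had 163.7 and 396.4. In the insulin and TOR list 6 of 13 genes held a member (172.3 per Mb), and InR, the insulin receptor gene, had 9 of the 14, without which the density was 86.6 per Mb. Its strongest had 233.1 in replicate 2 and 185.2 in replicate 4. The foxo and ImpL2 genes, for the forkhead factor restrained by insulin and for an insulin-binding protein, had 1 each, and both of these were stronger, with 491.8 and 375.5 for foxo and 455.5 and 341.7 for ImpL2.

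In the JNK list 5 of 7 genes held a member (256.9 per Mb, with 303.6 in replicate 2 and 210.2 in replicate 4). The kinase gene msn had 5, the phosphatase gene puc 2 and Traf4 2, and the strongest msn member had 358.7 in replicate 2 and 360.9 in replicate 4. In the Notch list 5 of 13 did (141.1 per Mb), of which mam gave 12 of 20 members, the glycosyltransferase gene fng 4 and the protease gene kuz 2. Without mam the Notch list had 72.8 per Mb, near the density of all genes. For Traf4 replicate 4 alone gave 1, and so did replicate 2 alone for kuz. In the Wnt and Hedgehog list 7 of 15 did (116.7 per Mb). The Wnt receptor genes fz2, fz and arr had 5 each, with 396.6, 283.8 and 152.7 in replicate 2 and 318.4, 264.3 and 171.1 in replicate 4 at the strongest, while the ligand gene wg had 1 and hh none. The count for fz2 was 4 in replicate 2 alone and 9 in replicate 4 alone.

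Among cell death and autophagy genes 5 of 8 held a member (261.2 per Mb). Those of dnr1 numbered 5 and those of Atg1, the kinase gene that starts autophagy, 3. The strongest Atg1 member had 513.2 in replicate 2 and 581.7 in replicate 4 (chromosome 3L, 12802375 to 12802859). Atg5, hid and Atg17 had 1 each. In the Polycomb and trithorax list 5 of 21 did, and trx, which encodes a histone H3 methyltransferase, had 7 of the 13 in only 7.045 kb (192.9 per Mb with trx and 99.4 without). The strongest trx member had 899.5 in replicate 2 and 635.5 in replicate 4 (chromosome 3R, 14283612 to 14284069). The other genes with a member were skd with 3 and Psc, ph-p and kis with 1 each, and 12 of the 16 without one had under 0.8 kb of eligible sequence.

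The clock list had 3 of 10 genes with a member (118.7 per Mb), led by Pdp1 with 7 and vri with 2, which encode the opposing bZIP factors of a second feedback loop of the clock. Pdp1 had 8 in replicate 2 alone and 4 in replicate 4 alone, and the list had 130.5 and 83.1 per Mb, or 57.8 in the thresholded list without Pdp1. The strongest vri member had 273.9 in replicate 2 and 331.4 in replicate 4. The GATA list had 2 of 7, with 7 in ush, the gene for a cofactor of GATA factors, and 1 in grn (113.7 per Mb, and 33.2 without ush). The strongest ush member had 261.6 in replicate 2 and 210.4 in replicate 4.

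Axon guidance and cell adhesion genes held a member in 16 of 25 (64.0%), at 60.3 per Mb against 73.6 for all genes, with 49.95 against 70.5 in replicate 2 and 68.9 against 73.5 in replicate 4, which is near the density of all genes. Fas3 had 6 and the Netrin receptor gene fra 5, while Ten-a had 3 in 113.0 kb. Neuronal channel and synapse genes had 16.6 per Mb, in 4 of 22 genes, and Sh, a potassium channel gene, had 1 in 61.12 kb. That member had 211.4 in replicate 2 and 197.6 in replicate 4. Muscle genes had 40.3 per Mb in 4 of 15, with 4 in Mef2 and none in Mhc or sls.

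Of 9 Hox genes and cofactors 1 held a member, the cofactor gene hth with 4, and none of Ubx, Abd-B, Antp, Scr, pb, lab, abd-A and Dfd did, with 7.404 to 17.00 kb of eligible sequence each and no member in either replicate alone. Among wing, leg and eye patterning genes 5 of 27 held one (18.5%, near the 17.7% of all eligible genes, at 46.3 per Mb): hth with 4, ct with 3, nub and knrl with 2 and al with 1. The genes of this list were longer in eligible sequence, with a median of 7496 bp against 1635 bp for all eligible genes. Per length they thus stood below the 73.6 per Mb of all genes. With 1 replicate alone nub (replicate 4) and knrl (replicate 2) had 1, and al had none in replicate 2. The genes vg, ap, ey, eya, dac and Dll had none in either replicate. The strongest hth member had 173.4 in replicate 2 and 203.8 in replicate 4.

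Some lists could barely hold members. Ribosomal protein genes had no eligible sequence in any of 88 genes, chemosensory genes had no member in 16 eligible of 230, and cuticle genes had 1 in 9 eligible of 114, in Cpr76Bc. Fat body genes had a member in 1 of 8, the lipase gene bmm with 2, and Toll and Imd genes in 1 of 7, the receptor gene Tl with 1. The replicates gave other counts for these, at 2 genes of each of the last 2 lists in replicate 2. These counts say little at such lengths.

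**Figure D4:**
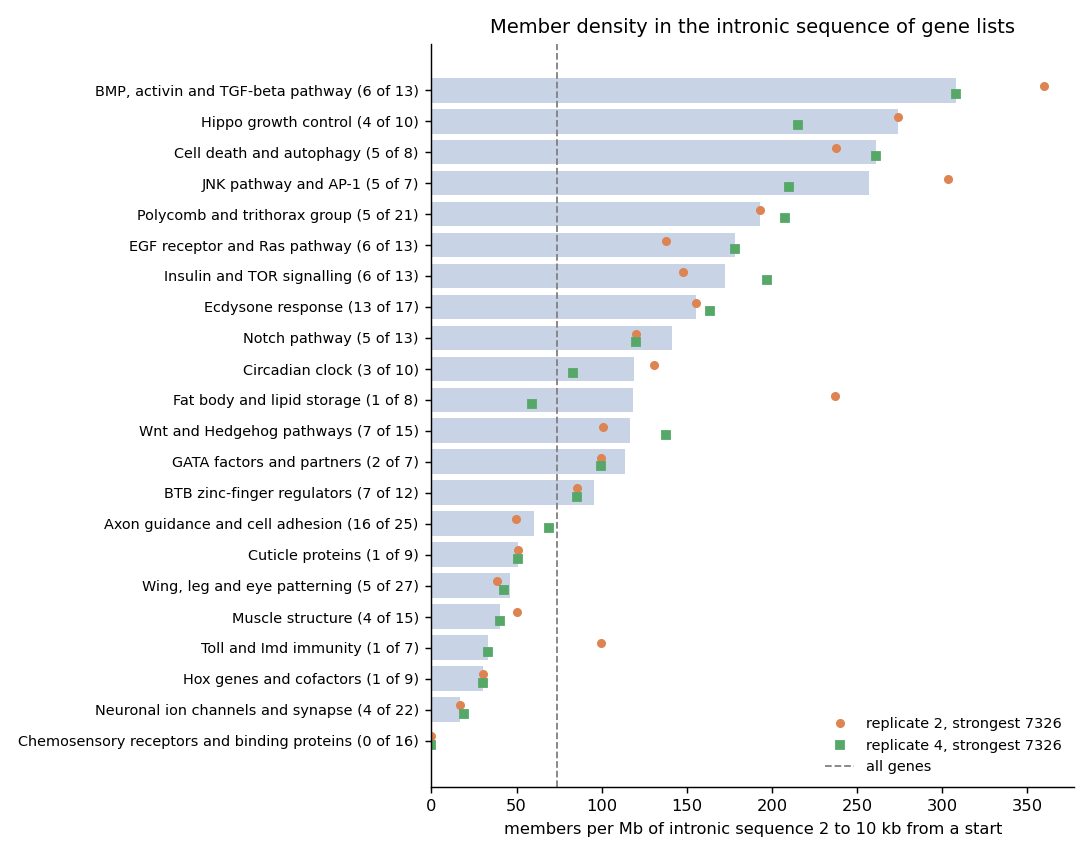
Members per Mb of eligible intronic sequence for each gene list that has any (bars, thresholded list), with the same from the strongest 7326 peaks of each replicate alone (points) and the dashed line at 73.6 per Mb for all genes; the numbers after each name give genes with a member of genes with eligible sequence. The BMP list is highest at 308.2 per Mb (235 without shn), neuronal genes have 16.6 per Mb and chemosensory genes 0, and lists share some genes.

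At the summits the members were AT-rich. Windows of 100 bp to each side had 36.0% G + C, against 42.2% and 41.7% in windows of the same length centred 500 bp to the left and right, and 39.9% over the sequence that meets the rule. The figure was 34.5% for the strongest 20% of members by signal value and 37.7% for the weakest 20%. A run of 8 A or 8 T was present in 25.9% of summit windows and 15.2% of flanking ones. This share was higher than in introns 501 to 2000 bp from a start, at 20.7% (difference 5.15 points, 95% interval 2.08 to 8.15, two-sided Fisher exact test, adjusted p = 0.0191). With replicate 4 alone the difference was 2.39 points and did not pass, and with replicate 2 alone it passed. Introns over 10000 bp from a start had 28.4%, which did not pass against the members (difference of -2.47 points, interval -6.69 to 1.56, two-sided Fisher exact test, adjusted p = 0.671). Among 7-mers, the 5 that most favoured the summits on chromosomes 2 and 4 were all A + T rich. In the 1184 members on chromosomes 3 and X they were in 19.8% to 37.3% of summit windows, against 11.4% to 23.1% of flanks. The most frequent, AAAAAAA, was in 37.3% and 23.1%, and AGAAAAA, which had the largest ratio, in 23.1% and 12.9%.

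The core CAGTG, searched on both strands as CAGTG or CACTG, was in 44.6% of summit windows (794 of 1781, 95% interval 42.3% to 46.9%) and 28.3% of flanks. In each replicate alone it was in 42.6% against 28.5% (replicate 2) and 45.1% against 29.4% (replicate 4). Over all 7326 thresholded summits the share was 42.6%. The 2 neighbouring intronic classes had 42.2% and 47.4%, and neither difference passed the threshold (2.38 points, interval -1.21 to 5.95, and -2.85 points, interval -7.45 to 1.74; two-sided Fisher exact tests, adjusted p = 0.671 for both). The core was in 48.5% of windows of the strongest 20% of members and in 44.7% of the weakest 20%, with the lowest share, 39.6%, between.

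The core was more frequent on either side of the summit than at the summit itself. At 61 to 160 bp from the summit there were 3.62 matches per 1000 windows per bp, against 1.80 at 401 to 500 bp, a ratio of 2.02. The ratio was 1.97 in replicate 2 alone and 1.88 in replicate 4 alone. In the 40 bp at the centre the rate was 1.83, close to the outer rate. Within 40 bp to each side of the summit the rate was 2.06, or 1.15 times the outer rate. By bins of 20 bp the rate was highest from 100 to 81 bp to the left (4.13) and from 60 to 79 bp to the right (3.93). The centre was the most AT-rich stretch, with 33.2% G + C against 42.8% at the outer edge. The rates were not adjusted for base composition, so they do not say whether the centre held more matches than its composition would give. This position was noticed in the data and then described, so it has no test.

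**Figure D5:**
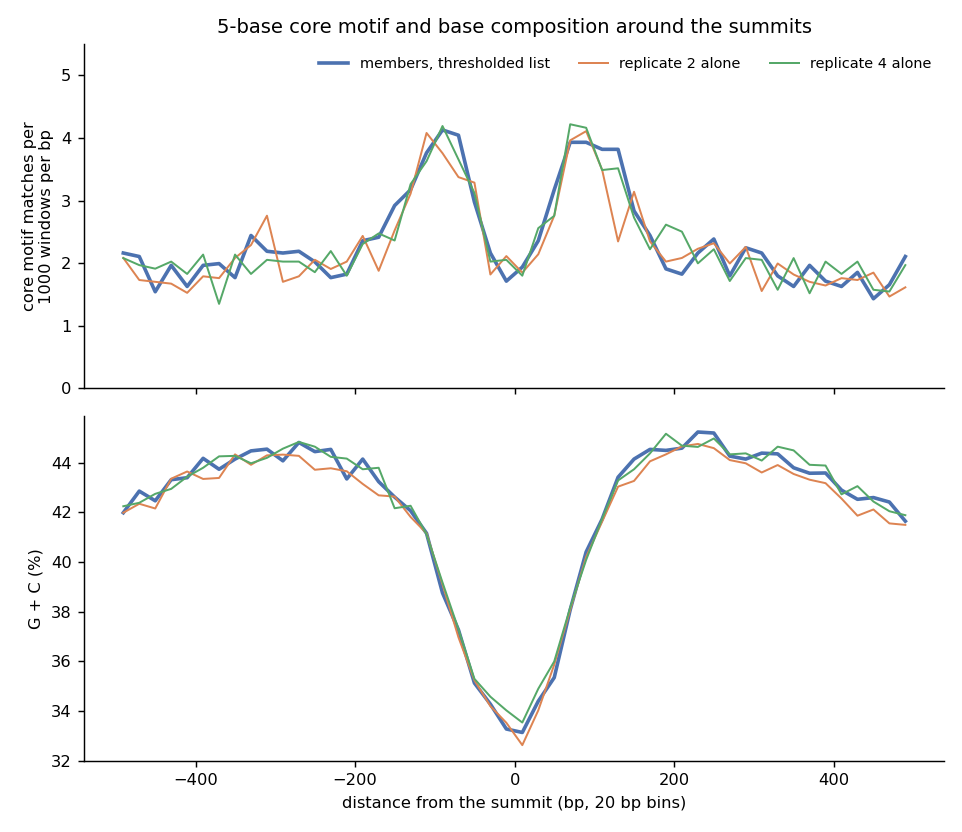
Top, matches to the 5-base core per 1000 windows per bp in 20 bp bins against distance from the summit (bp), for the 1781 members (thick line) and for each replicate alone; bottom, G + C percentage in the same bins, on an axis that starts at 32%. The core peaks at about 4 on both sides of the summit in all 3 sets and drops to about 2 at the centre, where G + C is lowest.

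Of all 512 5-mers joined with their reverse complements, this core had the highest ratio of matches at 61 to 160 bp to those at 401 to 500 bp in the members, in replicate 2 and in replicate 4. The zone of 61 to 160 bp was set after this core's position had been seen, which favours this core in the ranking. The rank is thus a description. In the members the next was GTGTA at 1.70, followed by GTGCA at 1.69 and by ACAGT at 1.64, all of which share letters with the core. At least 1 match lay at 61 to 160 bp in 49.9% of windows (888 of 1781), against 29.5% at 401 to 500 bp, and matches on both sides were present in 12.3% against 2.81%. Matches on both sides were also present in 11.01% against 2.09% of windows in introns 501 to 2000 bp from a start, 14.4% against 2.65% over 10000 bp away and 8.51% against 3.75% at promoters. The ratio of match rates, 2.02 in the members, was 1.85, 2.15 and 1.43 in these classes, so the arrangement was not limited to the members. Read from the core's first letter, 43.5% of the 1291 matches near members pointed towards the summit, with 43.5% in replicate 2 and 43.2% in replicate 4. The base 2 positions after the core was A in 45.2% of these matches and in 31.5% of 603 matches of the outer zone with full surroundings, and the base 2 positions before it was C in 35.2% and 25.4%.

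Most other known elements were not gathered at the members' summits. GAGAG, the element of the GAGA factor, was in 26.2% of windows and 24.6% of flanks, and with replicate 2 alone it was in 24.8% and 25.6%. The GATA element TGATAA was in 15.4% and 12.4%, with 14.03% and 12.7% in replicate 2 and 15.9% and 12.3% in replicate 4. The E-box CAGCTG was below its flanks, at 6.57% and 9.10%, as were the nuclear receptor site AGGTCA (4.04% and 4.55%), CATTCC, a core of Scalloped sites (7.19% and 10.3%), and GTGGGAA, a core of Su(H) sites (1.91% and 3.29%). The AP-1 element TGANTCA was in 4.72% and 4.89%, and 6.20% and 4.41% in the stronger 50% of peaks. Of the remaining motifs, the homeodomain core TAATTA was in 14.3% of windows and 13.3% of flanks, the Zelda-type element CAGGTA in 3.31% and 3.68%, and the DREF element, whose letters are TATCGATA, in 0.337% and 0.197%. The forkhead core TGTTTAC was in 4.32% and 4.69%, the E-box CACGTG in 1.40% and 2.13%, and the repeat CACACACA in 4.77% and 6.597%. None of the motifs of this paragraph differed past the threshold between members and either neighbouring class by two-sided Fisher exact test, where TGATAA alone passed with replicate 2 alone (14.03% in members, a difference of -5.25 points from introns 501 to 2000 bp away, adjusted p = 0.00215). Summit windows had less G + C than flanks (36.0% against 42.2% and 41.7%), and the shares were not adjusted for base composition. A match is a string of letters and does not show a bound site, and matches in 1 window can overlap.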

How the data were processed

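Binding of a CG6276-GFP fusion was measured by ChIP-seq in 2 prepupal replicates. Per the labels, lists were deposited on builds dm6 and dm3, and dm6 was used with 1-based positions; no coordinates were converted. The authors deposited narrow peak lists without header lines: 30000 peaks for each replicate, a pooled list of the same length and the IDR-thresholded list of 7326. The signal value is a score given by the authors' peak caller, which the sources used here do not name. The deposited −log10 q-value was capped, with 53.6% of thresholded peaks and 50.9% of members at the highest value, 3.89, and was not used for ranking. Depth is unknown.

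Each base of the 6 chromosomes of the rule was assigned to a position class from Ensembl 115, with transposable elements left out, and densities are summits per Mb of a class. Reference letters came from the RefSeq copy of Release 6, whose chromosome lengths are those of dm6. Replicate values used each replicate's strongest 7326 peaks, and matching used all 30000. Shares have Wilson 95% intervals and differences Newcombe intervals. Members were compared with the 2 neighbouring intronic classes by two-sided Fisher exact tests (2 measures and 15 motifs), with Benjamini-Hochberg adjustment over 34 tests and a threshold of 0.05. Motif windows reached 100 bp to each side. The code was tested on simulated data. Python 3.11.15, pandas 2.3.3, numpy 2.4.6, scipy 1.17.1 and matplotlib 3.10.9 were used.

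The named genes followed 1 rule: hosts of the 12 strongest members found in both replicates, the 6 genes with most members, and up to 3 genes with most members in each list with at least 2; other genes were named after their values were seen. The members and the 23 gene lists were chosen with earlier results of these data known. Of the list symbols 16 did not match the annotation, and their genes were left out of the counts unless listed under another name. Alternatives were each replicate alone, the stronger 50% of peaks, joined peaks, other overlaps, windows, flanks, starts and promoter reaches. The core's position around the summits, the promoter shares by length, the list densities without their leading gene and the tests per replicate were added after seeing the data.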

Additional observations from a re-analysis of the deposited data

How the results depend on the processing

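The stronger 50% of peaks held 839 members, or 22.9% of that list, and replicate 4 alone and replicate 2 alone gave 24.3% and 23.3%. Member density was 1.35 times that of all sequence, 1.29 to 1.34 times with 1 replicate alone and 1.27 times in the stronger 50%. The share found in both lists was most open to the rule: 97.3% with at least 1 bp, 44.5% with 80% of both lengths, and 47.9% among the strongest 7326 peaks. Of the 30 motif tests 1 passed as reported, 0 with 50 bp to each side, 0 in the stronger 50%, and 0 to 2 with 1 replicate alone. The A run passed with replicate 2 alone (5.62 points) and with joined peaks, and did not with 50 bp to each side (1.98 points), with replicate 4 alone (2.39 points) or in the stronger 50%, where the difference was 5.92 points against the reported 5.15 with fewer peaks. The excess of CAGTG at summits over flanks, 16.3 points, was 14.1 to 15.7 with 1 replicate and 18.4 in the stronger 50%. That of GAGAG, 1.54 points, turned to -0.734 with replicate 2 alone and -3.10 in the stronger 50%, was 1.04 with replicate 4 alone and rose to 3.12 against flanks 1000 bp away. The ratio of CAGTG near summits was 1.88 to 1.97 with 1 replicate, 2.08 with joined peaks and 2.14 in the stronger 50%. The nearest start was the host's for 74.96% with protein-coding starts alone, 30.97% of genes with at least 1000 bp of eligible sequence held a member (17.3% to 17.5% of all with 1 replicate), and 63.5% of host genes had a summit within 1000 bp of a start. The cause of these shifts was not tested. No other result crossed its test's threshold, apart from TGATAA against introns 501 to 2000 bp away, which passed with replicate 2 alone (-5.25 points). The difference in the share found in both lists from those introns, -3.73 points, was 1.99 points with at least 1 bp and passed in neither. No paired analysis was possible because there is 1 group, so the replicate numbers pair nothing. Without depth or an untagged library, peaks could not be set against a background level.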
